A study of Mus musculus with 31 samples.

Results

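The 8 genes described here encode secreted or shed growth factors: the EGF receptor ligands Hbegf, Areg and Ereg, the platelet-derived growth factor chains Pdgfa and Pdgfb, the vascular endothelial growth factor Vegfb, the insulin-like growth factor Igf1, and the progranulin gene Grn. They were chosen by symbol, and each of the 8 symbols had a row among the 24411 entries of the deposited gene count table. RNA-seq was available for 9 libraries of C57BL/6J mouse monocytes sorted as CD11b+ Ly6G- Ly6Chi MHC-II-. Healthy mice gave 3 blood libraries (healthy blood). Mice carrying a subcutaneous Lewis lung carcinoma, a transplantable mouse lung tumor line, gave 3 blood libraries (LLC blood) and 3 libraries of monocytes taken from the tumors (LLC tumor). The series title frames the question as how blood monocytes are preconditioned before they respond to the tumor, and the remaining 22 of the 31 samples, which profile chromatin, were not analysed here. The labels give no mouse age, sex, pooling or tumor day, and they do not say whether the blood and tumor libraries share mice.

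EGF receptor ligands are made as membrane-anchored precursors. They act after metalloproteinases of the ADAM family cut them free, and heparin-binding EGF (Hbegf), amphiregulin (Areg) and epiregulin (Ereg) are released by macrophages in wounds and tumors. The platelet-derived growth factor chains pair up and signal to fibroblasts and pericytes through Pdgfra and Pdgfrb, whereas Vegfb binds the receptor Flt1 together with its co-receptor Nrp1. Igf1 is a survival and repair factor that tissue macrophages secrete and that binding proteins hold in store. Progranulin is at once a secreted factor and a lysosomal protein, taken up through sortilin (Sort1) and cut into granulins by proteases.

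Total counts ranged from 10457492 to 20706412 per library. The sorting markers fitted the labels in part: the summed level of 8 Ly6C-high monocyte genes was 7298 to 8031 CPM (counts scaled to the library total) in blood and 7734 to 10020 CPM in tumor, while Ly6c2 itself was 1099 to 1728 CPM in blood and 272.4 to 472.5 CPM in tumor. Genes of other cells were also present. The summed level of 8 fibroblast genes was 939.8 CPM in LLC tumor 1, 3474 CPM in LLC tumor 2 and 3934 CPM in LLC tumor 3, against 6.70 to 18.2 CPM in healthy blood. LLC blood 1 stood apart at 416.8 CPM, where LLC blood 2 and 3 had 4.50 and 5.75 CPM. Of 8 epithelial genes, Cldn4 and Nkx2-1 had 0 counts in all 9 libraries, and the sum was 63.1 to 101.3 CPM in tumor and 1.35 to 2.73 CPM in blood. The 8 macrophage genes did not move together. Mrc1 was 282.0 to 496.3 CPM in tumor and 6.13 to 26.4 CPM in blood, C1qa 136.4 to 245.1 and 1.38 to 10.7 CPM, and Mertk 17.3 to 25.7 and 0.628 to 1.24 CPM. Adgre1 was lower in tumor, at 163.9 to 212.4 CPM against 289.8 to 340.0 CPM in blood, and Apoe was 536.9 to 963.9 CPM in tumor, 304.9 to 360.7 CPM in LLC blood and 923.0 to 1113 CPM in healthy blood. Their sum, in which Apoe, Cd68 and Adgre1 weigh most, was 1987 to 2969 CPM in tumor and 1039 to 1968 CPM in blood.

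Genes were compared with edgeR's quasi-likelihood test over all 9 libraries, and a gene was called at a Benjamini-Hochberg adjusted p under 0.05. Between LLC blood and healthy blood 2 members were called, Pdgfb and Igf1, both lower, while 4 others were not called and Areg and Ereg had too few counts for a fold. Over all 12337 genes tested, 23.6% were called in that comparison, 9.61% lower and 14.0% higher. With upper-quartile factors the split of all calls went from 1732 higher and 1185 lower to 1490 and 1727. Between LLC tumor and LLC blood 7 members were called, all higher, beside 61.3% of all genes, 29.6% in that direction and 31.7% lower. Between LLC tumor and healthy blood 6 members were called, all higher, beside 66.5% of all genes, 33.5% in that direction and 33.0% lower. Scaling by library totals alone moved the median difference of all genes between tumor and LLC blood from -0.03 to -0.23 on the log2 scale and the split of calls from 3652 higher and 3914 lower to 2859 and 5007. These member counts carry no weight of their own. Hbegf, Areg, Ereg and Pdgfa passed the filter on low counts only through the tumor libraries and so had to differ. Their adjusted p-values between tumor and blood carry no weight as tests. On the blood libraries alone 4 members passed it: Pdgfb, Vegfb, Igf1 and Grn. Of these, 3 were called in tumor against LLC blood and 2 in tumor against healthy blood. Igf1 passed there through its healthy blood counts, as LLC blood held 1, 2 and 2, so its calls against LLC blood are limited in the same way. The 3 comparisons share libraries pairwise and are not independent of each other.

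**Figure D1:**
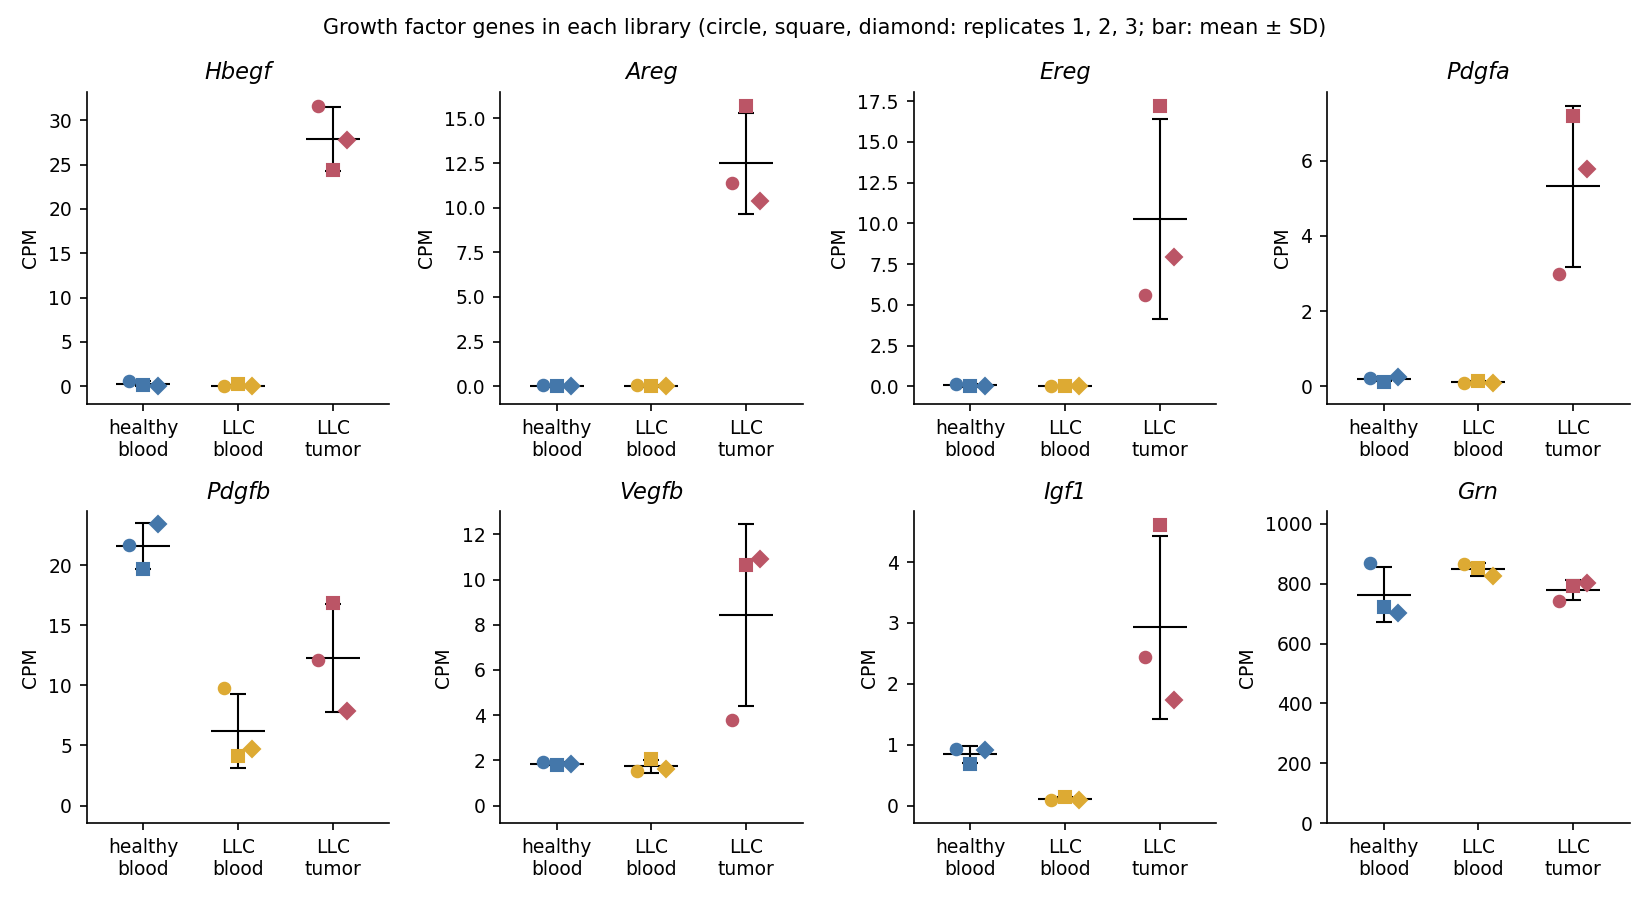
Level of each growth factor gene in CPM in the 3 healthy blood, 3 LLC blood and 3 LLC tumor libraries, with the group mean and SD. Hbegf, Areg, Ereg and Pdgfa were near 0 in all blood libraries, Pdgfb and Igf1 dipped in LLC blood, and Grn lay between 701.4 and 868.7 CPM throughout.

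The EGF receptor ligands had almost no reads in blood and a clear level in tumor. Hbegf (ENSMUSG00000024486), whose product binds the EGF receptor and heparan sulfate, had 8, 3 and 1 counts in healthy blood 1 to 3 and 0, 3 and 0 counts in LLC blood 1 to 3. The tumor libraries had 350, 275 and 321 counts, or 31.6, 24.4 and 27.7 CPM. No blood library reached the lowest tumor library. The CPM level over the pooled libraries was 424.0 times that of LLC blood (95% counting interval 144.6 to 2060, edgeR adjusted p = 4.29e-06) and 108.2 times that of healthy blood (61.7 to 210.2, edgeR adjusted p = 5.25e-06). Such intervals cover counting error only. Hbegf was tested only through its tumor reads, so these adjusted p-values carry no weight as tests. The ratios rest on few blood reads: without LLC blood 2 no LLC blood read is left and the tumor level was at least 289.6-fold higher (against a floor of 3 counts over the group), and without LLC blood 3 the ratio was 231.5. Against healthy blood it was 227.1 without healthy blood 1. The difference between the 2 blood groups was -1.86 ± 1.10 (log2, SE), with a 95% interval of -4.34 to 0.62 and an edgeR adjusted p of 0.256. It was not detectable at this depth, and single libraries moved it: it was -0.83 without healthy blood 1, -1.09 without LLC blood 3 and -4.88 without LLC blood 2, where no LLC blood read is left and the fitted value is no bound.

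Areg (ENSMUSG00000029378), the amphiregulin gene, had 1, 0 and 0 counts in healthy blood and 1, 0 and 0 counts in LLC blood. It had 126, 177 and 120 counts in LLC tumor 1 to 3, or 11.4, 15.7 and 10.4 CPM. The groups of blood and tumor libraries did not overlap. The ratio of pooled CPM was 568.7 against LLC blood (95% counting interval 101.5 to 22520, edgeR adjusted p = 3.7e-06) and 580.7 against healthy blood (103.7 to 22990, edgeR adjusted p = 2.97e-06). A single read in each blood group carries these ratios. As Areg too was tested only through its tumor reads, these adjusted p-values carry no weight as tests. Without LLC blood 1 the tumor level was at least 146.1-fold higher than in LLC blood, and without healthy blood 1 it was at least 135.4-fold higher than in healthy blood. Without LLC blood 3, the deepest library, the ratio was 310.6, and it was 377.8 and 377.4 without healthy blood 2 and 3. Both blood groups were under the floor of 3 counts, so they give no fold between them.

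Ereg (ENSMUSG00000029377), the epiregulin gene, had 2, 0 and 0 counts in healthy blood and none in LLC blood. The tumor libraries differed more for Ereg than for its neighbour Areg: 62, 194 and 92 counts, or 5.60, 17.2 and 7.95 CPM in LLC tumor 1 to 3. All of them lay above every blood library. The tumor level was at least 156.0-fold higher than in LLC blood (edgeR adjusted p = 9.99e-05), at least 103.4-fold without LLC tumor 2 and at least 85.2-fold without LLC blood 3. Against healthy blood the ratio of pooled CPM was 238.9 (95% counting interval 65.6 to 1980, edgeR adjusted p = 0.000114). It was 158.4 without LLC tumor 2, 155.4 and 155.2 without healthy blood 2 and 3, and at least 111.4 without healthy blood 1. Again the gene was tested only through its tumor reads, and these adjusted p-values carry no weight as tests.

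Lymphoid cells, basophils and mast cells can also make EGF receptor ligands, and some of their genes were higher in the same tumor libraries while others were lower. The summed level of 9 T and innate lymphoid cell genes was 151.8 to 170.7 CPM in tumor, 11.5 to 13.4 CPM in LLC blood and 27.7 to 101.2 CPM in healthy blood. The tumor sum was mostly Il7r (99.5 to 121.4 CPM) and Il1rl1 (16.4 to 52.3 CPM), while the T cell gene Cd3e was at 0.271 CPM or less there. The sum of 9 basophil and mast cell genes was 32.1 to 43.5 CPM in tumor and 2.12 to 9.83 CPM in blood, mostly Hdc. Mcpt4 and Tpsb2 had 0 counts in blood and 32 and 52 counts summed over the tumor libraries. Cpa3 was 0.632 to 2.22 CPM in tumor and at most 0.0613 CPM in blood, and Gata2 0.993 to 7.00 and at most 0.184 CPM. Mcpt8 was at 0.532 CPM or less, and Fcer1a had 0 counts in 8 of the 9 libraries. The part of these cells in the Hbegf, Areg and Ereg differences was not tested.

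Areg and Ereg are neighbours in the mouse genome. In RefSeq's GRCm38.p6 annotation Ereg lies at chr5:91074617-91093649 and Areg at chr5:91139599-91148432, with 45.9 kilobases and 0 annotated genes between them. The family members on either side had few reads: Epgn, the epigen gene, had 1, 0 and 2 counts summed over healthy blood, LLC blood and LLC tumor, and Btc, the betacellulin gene, had 0, 0 and 9. Mthfd2l, a mitochondrial folate enzyme gene beside Epgn, was 4.51 to 6.74 CPM in tumor and 0.386 to 0.858 CPM in blood, a difference from LLC blood of 3.75 on the log2 scale (edgeR adjusted p = 4.47e-06). The CXC chemokine genes farther along the same arm were also called higher in tumor than in LLC blood, Cxcl1 by 9.94, Cxcl2 by 10.19 and Cxcl3 by 9.85 on the log2 scale (edgeR adjusted p = 2.08e-07, 4.84e-06 and 9.07e-07). Cxcl1 and Mthfd2l passed the low-count filter only with the tumor libraries, so their adjusted p-values carry no weight as tests. All of these neighbours were named after their values were seen.

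RefSeq promoter sequences were matched for 5 of the 8 members (Areg, Igf1, Vegfb, Grn and Pdgfa), and 4 of them are shown with the gene they belong to, as the 250 bases before the annotated start on the gene's own strand in GRCm38.p6. The promoter of Areg is shown because this gene had at most 1 read in a blood library and 120 to 177 in the tumor libraries. Capitals mark the cyclic AMP response element TGACGTCA, whose first base lies 61 bases before the start, and the TATA box TATAAA, 31 bases before it.
Areg (chr5:91139349-91139598, plus strand): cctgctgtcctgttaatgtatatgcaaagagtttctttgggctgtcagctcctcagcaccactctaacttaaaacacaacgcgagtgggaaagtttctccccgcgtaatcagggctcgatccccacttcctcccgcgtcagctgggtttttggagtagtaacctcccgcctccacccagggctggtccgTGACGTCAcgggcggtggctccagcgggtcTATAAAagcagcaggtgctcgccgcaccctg
Searched on both strands in the same window, TGACGTCA occurred in 1.55% and TATAAA in 12.4% of 32851 RefSeq mouse promoters. The AP-1 letters TGANTCA, found in 6.75% of promoters, were not in this window. A match of letters describes the sequence and does not show that a factor binds there.

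The 2 platelet-derived growth factor genes had different levels in blood. Pdgfa (ENSMUSG00000025856, chr5:138976014-139000792), the A chain, had 3, 2 and 4 counts in healthy blood and 1, 2 and 2 counts in LLC blood. It had 33, 81 and 67 counts in tumor, or 2.98, 7.18 and 5.79 CPM. Tumor and blood did not overlap, and LLC tumor 1 was the lowest of its group. Pdgfa was tested only through its tumor reads, so its adjusted p-values between tumor and blood carry no weight as tests. Pdgfa was higher in tumor than in LLC blood by 5.64 ± 0.44 on the log2 scale (95% interval 4.66 to 6.63, edgeR adjusted p = 5.41e-06) and than in healthy blood by 4.85 ± 0.40 (3.94 to 5.76, edgeR adjusted p = 7.02e-06). Between the blood groups the difference was -0.79 ± 0.56 (-2.05 to 0.46, edgeR adjusted p = 0.451), which these few counts cannot resolve.

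Pdgfb (ENSMUSG00000000489, chr15:79995865-80024614), the B chain, was at its highest in healthy blood. Its level was 21.7, 19.7 and 23.4 CPM in healthy blood 1 to 3 and 9.75, 4.15 and 4.73 CPM in LLC blood 1 to 3. The 2 blood groups did not overlap, and LLC blood 1 was the highest of its group. Pdgfb fell in LLC blood by 1.85 ± 0.34 on the log2 scale (95% interval -2.63 to -1.08, edgeR adjusted p = 0.00493), from 21.6 ± 1.88 to 6.21 ± 3.08 CPM (SD, n = 3). Leaving out any library gave -2.29 to -1.63 with adjusted p up to 0.0308. Pdgfb is also made by megakaryocytes and platelets: 7 platelet genes summed to between 42.7 and 45.7 CPM in the healthy libraries and between 18.9 and 22.7 CPM in the LLC blood libraries, mostly Itgb3, while Gp1ba, Gp5 and Gp9 were at 1.41 CPM or less in every library. The part of platelet RNA in the fall was not tested. In bulk RNA, fewer expressing cells and less RNA per cell cannot be told apart, which holds for every difference given here.

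In tumor Pdgfb lay between the blood groups, at 12.1, 16.8 and 7.86 CPM in LLC tumor 1 to 3. LLC tumor 3 was below LLC blood 1. Of the platelet genes, Pf4 (70.5 to 119.1 CPM) and Ppbp (66.0 to 110.4 CPM) were above every blood library in tumor and the other 5 were not, and their part was not tested. The difference from LLC blood was 1.21 ± 0.35 on the log2 scale (95% interval 0.43 to 2.00, edgeR adjusted p = 0.0132). It was not called without LLC blood 2 (0.95, adjusted p = 0.0543) or without LLC blood 3 (1.03, adjusted p = 0.0564), and it was 1.64 without LLC blood 1, the library with 416.8 CPM of fibroblast genes. Every tumor library was below every healthy library, yet the fitted difference of -0.64 ± 0.33 (-1.38 to 0.10, edgeR adjusted p = 0.111) was not called. Without LLC blood 1, which changes the shared spread and the set of genes tested, it was -0.65 with adjusted p = 0.0412.

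Vegfb (ENSMUSG00000024962, chr19:6982472-6987651), a Flt1 ligand best known in heart and muscle, did not differ detectably between the blood groups. Healthy blood 1 to 3 had 1.93, 1.78 and 1.84 CPM and LLC blood 1 to 3 had 1.53, 2.08 and 1.59 CPM. The difference between them was -0.12 ± 0.34 on the log2 scale, with an interval of -0.88 to 0.65 (edgeR adjusted p = 0.835). Tumor libraries had 3.79, 10.6 and 10.9 CPM. LLC tumor 1 was set apart from the other two, and all 3 were above the blood range. Vegfb was higher in tumor by 2.43 ± 0.33 against LLC blood (95% interval 1.68 to 3.19, edgeR adjusted p = 0.00019) and by 2.31 ± 0.33 against healthy blood (1.57 to 3.06, edgeR adjusted p = 0.000217).

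The Vegfb promoter is shown as the most GC-rich of the printed sequences. It had 76.4% G or C, against 57.2% for Areg, 52.8% for Igf1, 53.6% for Grn and a median of 52.4% over all 32851 RefSeq promoters. Capitals mark the GC box CCGCCC or its complement, present at 4 places.
Vegfb (chr19:6987652-6987901, minus strand): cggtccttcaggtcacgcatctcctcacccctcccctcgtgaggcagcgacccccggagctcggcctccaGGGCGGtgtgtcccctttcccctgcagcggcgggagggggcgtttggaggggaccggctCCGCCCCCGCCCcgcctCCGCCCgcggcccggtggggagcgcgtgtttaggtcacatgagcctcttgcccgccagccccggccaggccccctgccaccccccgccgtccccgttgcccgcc
CCGCCC occurred on either strand in 32.7% of all promoters of this length, and TATAAA and TGACGTCA were not in this window.

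Igf1 (ENSMUSG00000020053, chr10:87858265-87937047) had the order tumor, healthy blood, LLC blood, with no overlap between neighbouring groups. Its level was 0.929, 0.676 and 0.920 CPM in healthy blood 1 to 3, from 13, 11 and 15 counts. In LLC blood 1 to 3 it was 0.0956, 0.138 and 0.0966 CPM, from 1, 2 and 2 counts. Every LLC blood library was thus far below every healthy one. Igf1 fell by 2.86 ± 0.53 on the log2 scale (95% interval -4.06 to -1.66, edgeR adjusted p = 0.00508), and leaving out any library kept the adjusted p at 0.0347 or less. Among the blood libraries Igf1 passed the low-count filter through the healthy ones, where it was high, so its adjusted p-values against LLC blood carry little weight as tests. The tumor libraries had 27, 52 and 20 counts, or 2.44, 4.61 and 1.73 CPM, so the lowest of them was above the highest healthy library. The difference was 4.80 ± 0.51 against LLC blood (3.66 to 5.94, edgeR adjusted p = 3.5e-05) and 1.95 ± 0.39 against healthy blood (1.06 to 2.83, edgeR adjusted p = 0.00176). The summed level of 6 dendritic cell genes was lower in LLC blood (24.2 to 39.2 CPM) than in the healthy libraries (70.2 to 85.0 CPM). Among the macrophage genes Apoe and Mrc1 were lower in LLC blood than in every healthy library (304.9 to 360.7 against 923.0 to 1113 CPM, and 6.13 to 8.41 against 16.7 to 26.4 CPM), whereas Adgre1 was higher (310.0 to 340.0 against 289.8 to 297.8 CPM). In tumor Mrc1, C1qa and Mertk were above every blood library, as Igf1 was. The part of dendritic cells and macrophages in the Igf1 difference was not tested.

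The Igf1 promoter is shown because Igf1 fell in the blood of tumor-bearing mice and was high in tumor. Capitals mark the AP-1 letters TGANTCA, whose first base lies 37 bases before the start used in RefSeq's table, a start inside the gene's annotated span.
Igf1 (chr10:87860861-87861110, plus strand): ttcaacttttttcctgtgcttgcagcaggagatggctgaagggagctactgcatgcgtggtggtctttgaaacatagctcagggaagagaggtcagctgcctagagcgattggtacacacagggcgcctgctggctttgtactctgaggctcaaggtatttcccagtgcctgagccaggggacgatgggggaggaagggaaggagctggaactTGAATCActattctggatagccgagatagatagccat
This window held no TGACGTCA, no TATA box and no GC box.

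Grn (ENSMUSG00000034708, chr11:102430507-102436809) had 8226 to 17072 reads in every library, and no difference was called. Its level was 868.7, 722.4 and 701.4 CPM in healthy blood 1 to 3 and 867.1, 853.6 and 824.5 CPM in LLC blood 1 to 3. It was 742.7, 794.1 and 801.6 CPM in LLC tumor 1 to 3. Tumor libraries were all below the LLC blood libraries in CPM and inside the healthy range. The fitted difference was 0.12 ± 0.11 on the log2 scale for LLC blood against healthy blood (95% interval -0.12 to 0.37, edgeR adjusted p = 0.45), 0.08 ± 0.11 for tumor against LLC blood (-0.16 to 0.33, edgeR adjusted p = 0.541) and 0.20 ± 0.11 for tumor against healthy blood (-0.04 to 0.45, edgeR adjusted p = 0.124). The sign in tumor against LLC blood depended on the scaling: library totals alone gave -0.12 (adjusted p = 0.244). Against healthy blood the difference was called by DESeq2 (0.25, adjusted p = 0.0306) and by edgeR without healthy blood 1 (0.29, adjusted p = 0.0461).

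The Grn promoter is printed beside the others as that of a gene with no difference called. Capitals mark its only GC box, on the complementary strand.
Grn (chr11:102430257-102430506, plus strand): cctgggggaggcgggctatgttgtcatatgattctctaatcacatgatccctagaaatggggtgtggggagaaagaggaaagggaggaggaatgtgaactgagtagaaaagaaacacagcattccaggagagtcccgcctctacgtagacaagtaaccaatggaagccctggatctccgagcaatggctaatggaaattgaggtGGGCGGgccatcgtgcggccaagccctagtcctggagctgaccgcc
It held no TATAAA, TGACGTCA or TGANTCA.

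**Figure D2:**
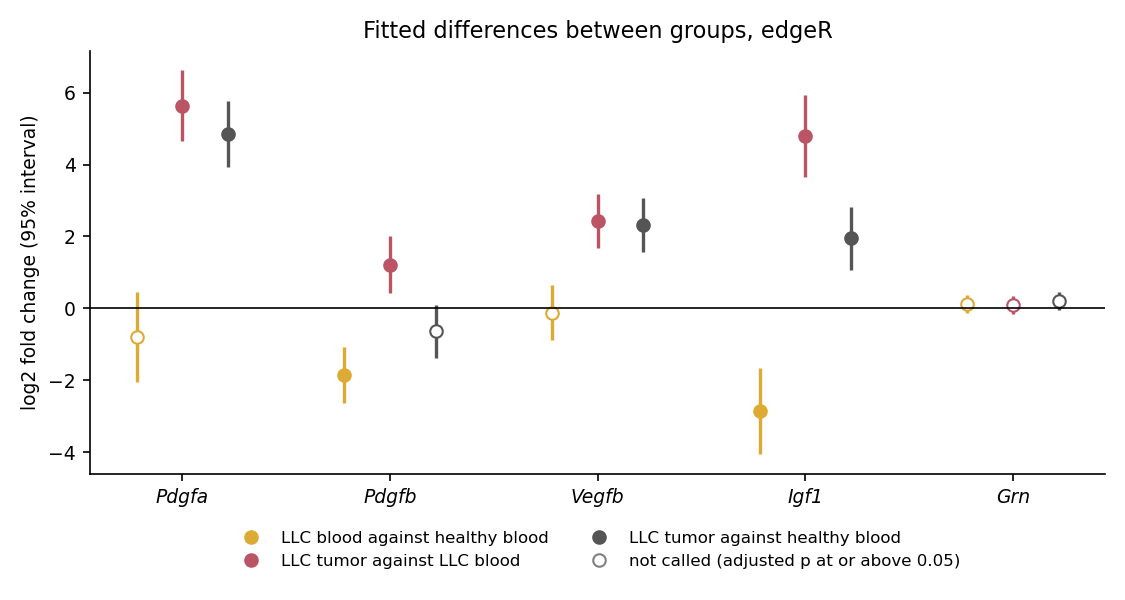
Fitted log2 fold changes with 95% intervals for the 5 members with more than 3 counts in every group, filled where called. Pdgfb and Igf1 were below 0 in LLC blood against healthy blood, Pdgfa, Vegfb and Igf1 were well above 0 in tumor, and every Grn interval reached 0.

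The tumor libraries varied most for Ereg and least for Grn among the 8 genes. The highest tumor library was 3.07 times the lowest for Ereg, 2.87 times for Vegfb, 2.67 times for Igf1, 2.41 times for Pdgfa and 2.14 times for Pdgfb. It was 1.51 times for Areg, 1.30 times for Hbegf and 1.08 times for Grn. LLC tumor 1 was the lowest for Ereg, Pdgfa, Vegfb and Grn and the highest for Hbegf, and it also had the lowest fibroblast gene sum and the lowest TMM factor, 0.798 against 1.000 and 0.968. Its fibroblast sum of 939.8 CPM was below 3474 and 3934 CPM, and the part of other cells in the spread of these members was not tested. LLC tumor 2 was the highest for Areg, Ereg, Pdgfa, Pdgfb and Igf1. Leaving out LLC tumor 1 kept all 7 calls of members against LLC blood. For Hbegf, Areg, Ereg and Pdgfa, tested only through tumor reads, that outcome was close to fixed.

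**Figure D3:**
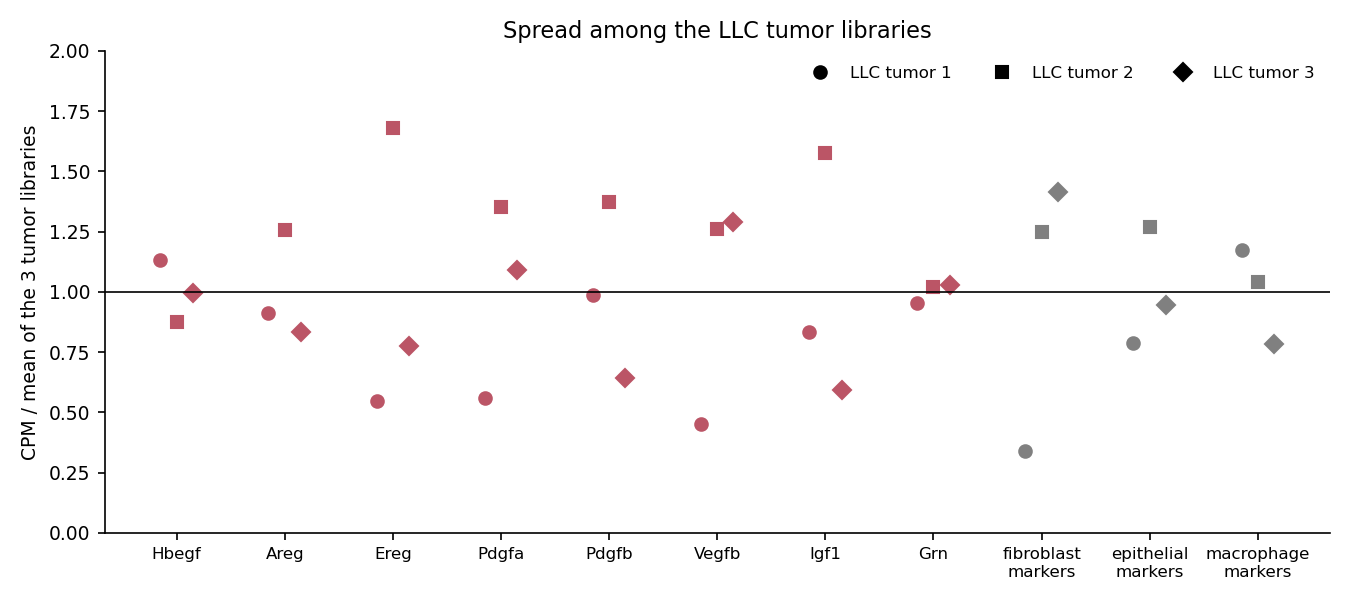
CPM of each member in each tumor library divided by its mean over the 3 tumor libraries, with summed marker genes of 3 cell types in grey. LLC tumor 1 lay low for Ereg, Pdgfa, Vegfb and the fibroblast sum, and Hbegf, Areg and Grn spread less than the others.

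Among the other ligands of the EGF receptor family (Egfr and Erbb2 to Erbb4) only Nrg1, Nrg2 and Nrg4 had enough counts to test, and Egf, Tgfa, Btc, Epgn and Nrg3 did not. Nrg1, a neuregulin that signals through Erbb3 and Erbb4, was 3.36, 3.32 and 2.64 CPM in healthy blood, 7.65, 9.41 and 9.08 CPM in LLC blood and 16.3, 15.8 and 16.0 CPM in tumor. The 3 groups did not overlap. Nrg1 rose in LLC blood by 1.46 ± 0.17 on the log2 scale (edgeR adjusted p = 0.000555) and was higher in tumor than in LLC blood by a further 1.08 ± 0.16 (edgeR adjusted p = 0.000293). Nrg2 went the other way in tumor, by -1.85 ± 0.54 against LLC blood (edgeR adjusted p = 0.0142) and -2.03 ± 0.53 against healthy blood (edgeR adjusted p = 0.00781). Its mean was 1.67 CPM in LLC blood and 0.387 CPM in tumor. Nrg4 was not called in tumor against LLC blood (0.34 ± 0.29, edgeR adjusted p = 0.332).

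The receptors and feedback regulators of EGF signaling were mostly higher in tumor: of 11 tested, 9 were called higher and 1 lower than in LLC blood, with a median log2 difference of 4.44 against -0.03 over all genes. That was 90.9% called, beside 61.3% of all genes. Errfi1, which binds and inhibits the EGF receptor, was 440.8, 391.2 and 371.0 CPM in tumor and 8.44 to 9.51 CPM in LLC blood (edgeR adjusted p = 7.49e-08). Lrig1, another negative regulator, was higher by 8.82 ± 0.84 (edgeR adjusted p = 1.91e-05), and Egfr itself by 6.77 ± 0.91 (edgeR adjusted p = 0.000158). The last 2 were lowest in LLC tumor 1, as were the fibroblast gene sum and 64.8% of all genes called higher in tumor than in LLC blood. Egfr was 3.07, 28.4 and 19.8 CPM and Lrig1 19.5, 97.9 and 114.0 CPM in LLC tumor 1 to 3, and the part of fibroblast RNA in them was not tested. In LLC blood against healthy blood 1 gene of this list was called higher and 1 lower, 18.2% of those tested beside 23.6% of all genes.

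Of 9 genes of the shedding machinery, 6 were called higher and 1 lower in tumor than in LLC blood (median 0.69), 77.8% beside 61.3% of all genes. Adam8, a metalloproteinase of myeloid cells, rose in LLC blood from 26.2 ± 3.08 to 46.5 ± 3.46 CPM (edgeR adjusted p = 0.00336) and was 2275 ± 93.0 CPM in tumor (log2 difference from LLC blood 5.82 ± 0.16, edgeR adjusted p = 7.49e-08). Adam17, the main sheddase of Hbegf, Areg and Ereg, was at 188.9 ± 7.44 CPM in healthy blood, 222.9 ± 13.5 CPM in LLC blood and 255.5 ± 7.41 CPM in tumor. Its log2 difference between tumor and LLC blood was 0.41 ± 0.11 (edgeR adjusted p = 0.00898), and the blood difference of 0.21 ± 0.11 was not called (edgeR adjusted p = 0.188) except in 4 of the 18 alternative fits. Rhbdf2, the iRhom that brings Adam17 to the cell surface, was higher in tumor by 0.69 ± 0.07 (edgeR adjusted p = 3.44e-05), and its relative Rhbdf1 by 4.69 ± 0.57 (edgeR adjusted p = 8.32e-05). Rhbdf1 was 5.15, 22.4 and 23.1 CPM in LLC tumor 1 to 3. It was lowest in LLC tumor 1, as were the fibroblast gene sum and 64.8% of all genes called higher in tumor than in LLC blood. The part of fibroblast RNA in Rhbdf1 was not tested. Adam9 rose in LLC blood by 0.88 ± 0.13 (edgeR adjusted p = 0.00199). Frmd8, a stabiliser of iRhoms, fell by 0.25 ± 0.07 in LLC blood (edgeR adjusted p = 0.0262), a call lost in 5 of the 18 alternative fits: with library totals alone and on leaving out any of healthy blood 1, healthy blood 3, LLC blood 2 and LLC blood 3. Its tumor difference from LLC blood was -0.47 ± 0.07 (edgeR adjusted p = 0.000295).

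Of the 5 other PDGF and VEGF ligands tested, 4 were called higher in tumor than in LLC blood and none in LLC blood against healthy blood. Over all genes 61.3% and 23.6% were called in these comparisons. Vegfa, the main angiogenic factor, was 1193, 903.8 and 911.3 CPM in tumor against 4.78, 0.484 and 0.918 CPM in LLC blood (log2 difference 9.36 ± 0.61, edgeR adjusted p = 1.97e-06). Pgf, which shares the receptor Flt1 with Vegfb, was 38.8 ± 2.17 CPM in tumor and 0.586 ± 0.240 CPM in LLC blood (6.31 ± 0.25, edgeR adjusted p = 2.08e-07). Figf, which encodes VEGF-D, had 4.51, 17.3 and 16.2 CPM in tumor and 1 read in all LLC blood libraries together. Figf was lowest in LLC tumor 1, as were the fibroblast gene sum and 64.8% of all genes called higher in tumor than in LLC blood. The part of fibroblast RNA in Figf was not tested.

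Among 8 receptors and processing enzymes for these ligands, 4 were called higher and 1 lower in tumor than in LLC blood (median 0.79). This share of 62.5% was near the 61.3% of all genes. The Vegfb receptor Flt1 was 29.9, 29.6 and 29.8 CPM in healthy blood and 10.0, 4.77 and 7.39 CPM in LLC blood. Flt1 fell by 2.04 ± 0.32 on the log2 scale (edgeR adjusted p = 0.00251), and with 9.48, 4.61 and 6.65 CPM in tumor no difference from LLC blood was called (0.14 ± 0.34, edgeR adjusted p = 0.732). Flt1 was the only one of the 8 called between the blood groups, where 23.6% of all genes were called. The co-receptor Nrp1 was lower in tumor than in LLC blood (-1.44 ± 0.13, edgeR adjusted p = 1.26e-05) and Nrp2 higher (2.71 ± 0.29, edgeR adjusted p = 4.3e-05). Pdgfra, itself on the fibroblast list, was 11.1, 39.4 and 43.0 CPM in LLC tumor 1 to 3 (5.93 ± 0.99, edgeR adjusted p = 0.000632).

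On the IGF axis 6 of 10 tested genes were called higher and 1 lower in tumor than in LLC blood (median 1.46), where 61.3% of all genes were called. Between the blood groups 2 of the 10 were called higher in LLC blood and 0 lower, where 23.6% of all genes were called. Igf1r, the Igf1 receptor, was 25.9 ± 2.80 CPM in LLC blood and 69.8 ± 12.9 CPM in tumor, a log2 difference of 1.61 ± 0.12 (edgeR adjusted p = 3.52e-06). Igf2r, which clears Igf2 and sorts lysosomal enzymes, was higher in tumor by 5.88 ± 0.23 (edgeR adjusted p = 1.93e-07). The insulin receptor Insr rose in LLC blood by 0.59 ± 0.10 (edgeR adjusted p = 0.00384) and was lower in tumor than in LLC blood (-1.24 ± 0.11, edgeR adjusted p = 1.02e-05). Igfbp6, a binding protein, was 1.22, 1.54 and 0.858 CPM in healthy blood and 6.50, 8.58 and 10.3 CPM in LLC blood (2.79 ± 0.27, edgeR adjusted p = 0.000219). Igfbp4 was 98.8, 300.2 and 406.9 CPM in LLC tumor 1 to 3 and 5.81 to 8.99 CPM in LLC blood. Irs1, an adaptor of the insulin and IGF receptors, was 1.90, 16.7 and 13.1 CPM in LLC tumor 1 to 3. Both were lowest in LLC tumor 1, as were the fibroblast gene sum and 64.8% of all genes called higher in tumor than in LLC blood. The part of fibroblast RNA in Igfbp4 and Irs1 was not tested.

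Of 15 tested genes that handle the Grn product, 8 were called higher and 6 lower in tumor than in LLC blood (median 0.60), where 61.3% of all genes were called. Between the blood groups 5 were called higher in LLC blood and 0 lower, where 23.6% of all genes were called. Sort1, the sortilin receptor that takes progranulin into cells, was 351.8 ± 28.3 CPM in LLC blood and 49.8 ± 13.3 CPM in tumor (-2.64 ± 0.13, edgeR adjusted p = 5.06e-07). Lrp1, another uptake receptor, rose in LLC blood from 1229 ± 79.2 to 2996 ± 131.6 CPM (1.26 ± 0.10, edgeR adjusted p = 0.0001). The proteinase 3 gene Prtn3, whose product cuts progranulin, rose in LLC blood by 2.31 ± 0.31 (edgeR adjusted p = 0.00112) and had a tumor difference from LLC blood of -2.14 ± 0.31 (edgeR adjusted p = 0.000271). Mmp12 and Mmp14, which also cut it, were higher in tumor than in LLC blood by 8.72 ± 0.52 and 6.46 ± 0.25 (edgeR adjusted p = 1.07e-06 and 2.08e-07). Tfeb, a regulator of lysosomal genes, was lower in tumor than in healthy blood (-1.18 ± 0.17, edgeR adjusted p = 0.000262).

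Of 15 other growth factor genes tested, 12 were called higher and 1 lower in tumor than in LLC blood (median 3.68), 86.7% beside 61.3% of all genes. Osm, the oncostatin M gene, was 1006, 903.1 and 900.6 CPM in tumor against 15.6, 6.02 and 4.59 CPM in LLC blood (7.02 ± 0.44, edgeR adjusted p = 1.56e-06). Inhba, which encodes the activin A chain, was 56.0, 47.8 and 46.8 CPM in tumor against 9 reads in all LLC blood libraries together (8.13 ± 0.32, edgeR adjusted p = 2.08e-07). Hgf, the hepatocyte growth factor gene, rose in LLC blood from 7.00 ± 0.716 to 14.9 ± 1.71 CPM (edgeR adjusted p = 0.00112), and its tumor difference of -0.36 ± 0.14 (edgeR adjusted p = 0.0498) was lost in 11 of the 18 alternative fits. Csf1, the macrophage growth factor gene, was 8.14 ± 1.69 CPM in healthy blood and 4.18 ± 0.859 CPM in LLC blood (-1.01 ± 0.24, edgeR adjusted p = 0.0159). That call was lost without healthy blood 1 or 2 (adjusted p = 0.0545 and 0.0541) and without LLC blood 2 or 3 (adjusted p = 0.0716 and 0.0779).

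Over all these lists, 102 genes were in the table and 76 were tested. In LLC blood against healthy blood 13 were called higher and 4 lower, 22.4% of the tested genes beside 23.6% of all genes. In tumor against LLC blood 50 were called higher and 12 lower, 81.6% beside 61.3%. In tumor against healthy blood 57 were called higher and 8 lower, 85.5% beside 66.5%. Genes of these lists also pass the low-count filter through tumor reads alone, among them Egfr, Figf, Irs1 and Inhba. For such genes the adjusted p-values between tumor and blood carry no weight as tests. LLC tumor 1 was the lowest tumor library for 56.0% of the 50 list genes called higher and for 64.8% of the 3652 such genes overall. Without LLC tumor 1 the lists held 58 genes called higher and 11 lower than LLC blood, and without LLC blood 1 they held 59 and 12. Between the blood groups the count went from 17 to 30 without LLC tumor 1, which changes the shared spread and raises the list genes tested from 76 to 84.

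**Figure D4:**
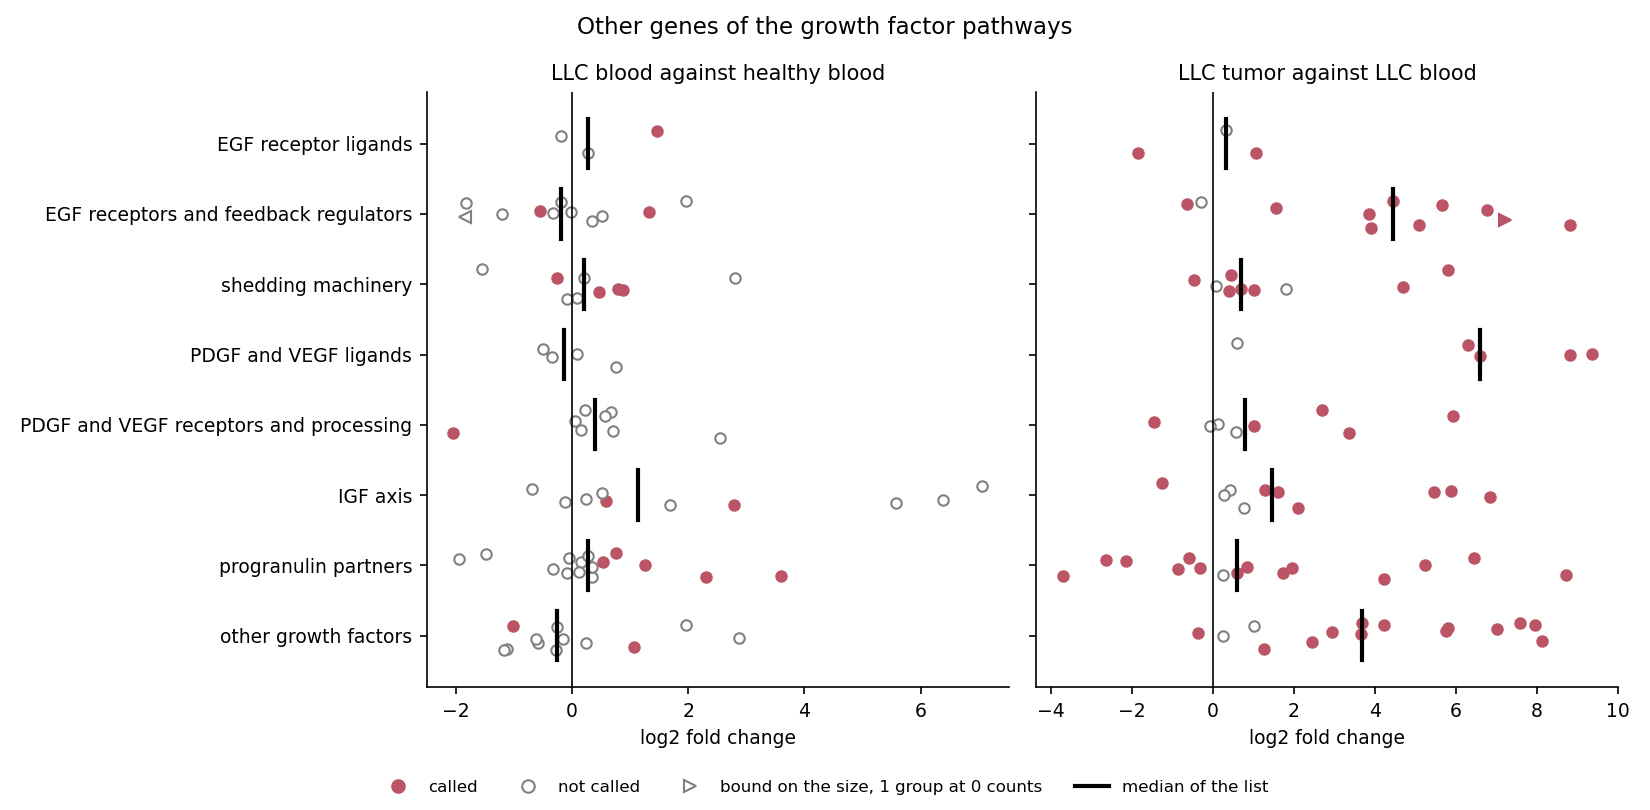
Log2 fold change of each tested gene of the 8 pathway lists in LLC blood against healthy blood (left) and LLC tumor against LLC blood (right), with the list median as a bar; genes with 3 counts or fewer in both groups are left out. List genes lay on both sides of 0 in blood and mostly to the right in tumor, where the median was 6.61 for PDGF and VEGF ligands and 0.60 for progranulin partners.

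The genes whose pattern over the 9 libraries was most like each member were found by the root mean square difference of log2(CPM + 1) values, each gene centred on its own mean, among genes whose mean level reached 20 CPM. All points share these libraries and their depth, so the measure is a description. The added 1 CPM shrinks the folds of members near 0 CPM in blood, so a near gene can have a much smaller fold. From LLC blood to tumor the mean of Bnip3 went from 18.8 to 437.4 CPM and that of Hbegf from 0.0692 to 27.9 CPM. Nearest to Hbegf were Bnip3 and Clec4n (both 0.18) and Rgcc (0.21). Areg was most like Tnfrsf26 (0.22), Lrp12 (0.23) and Cdkn1a (0.24), and Ereg most like Serpinb6a (0.22), Plxna1 (0.24) and Peak1 (0.34). Pdgfa lay near Pi4k2b (0.17), Sh3pxd2a (0.19) and Tspan3 (0.20), and Vegfb near Ank (0.15) and Nmt2 (0.19). For Igf1 the nearest were Mtss1 (0.23), Cdk14 (0.26) and Anxa3 (0.27). Pdgfb had no close match: Ier2 (0.40), Apoe (0.41) and Siglec1 (0.42) were the nearest. The mean of Apoe was 1026 CPM in healthy blood, 715.7 CPM in tumor and 330.1 CPM in LLC blood, the order that Pdgfb had. Grn was nearest to Usp30 (0.05), Dennd5a (0.06) and Slc25a51 (0.07), in a pattern whose whole range was 0.31.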

How the data were processed

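The 9 RNA-seq libraries form 3 groups of 3. Per the labels' protocols, RNA was isolated with TRIzol, made into TruSeq libraries and read on a HiScanSQ sequencer. The authors deposited expected counts (estimated read counts per gene, not normalized) for 24411 entries. They also deposited CPM values for 10693 genes with Ensembl identifiers, of which 100% were whole reads within 0.01 read and 100% equalled the rounded count table. The members' counts were whole numbers in every library. Per the submitters' processing notes, Trim Galore 0.6.7, cutadapt 3.4, STAR 2.6.1d, Salmon 1.9.0 and edgeR were used, with no roles given. Whether counting used strand is not given in the sources used here. Column heads of the blood libraries contain BM, which could also be read as bone marrow. The titles say blood, and these libraries are called blood here.

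Counts were rounded and fitted with edgeR 4.0.16 (R 4.3.3), group as the only term, TMM factors and filterByExpr, which kept 12337 genes. P-values were adjusted by Benjamini-Hochberg over these genes within each of 3 comparisons, and errors of log2 differences are SE. Expression levels are CPM over all entries. Nothing in the labels says that the replicates are separate mice, so p-values measure the spread between these samples, which may be technical. The labels name no sequencing batch, and groups and any batch that runs along them cannot be told apart.

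A group with 0 counts was set to a floor of 3 counts over the group, and its fold is a lower bound. With 1 to 3 counts the ratio is given with an exact 95% counting interval. With 3 or fewer in both groups no fold is given. No transcript lengths were used, so levels are compared within a gene only.

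The members, the pathway and marker lists and the tests were chosen with earlier results of these data known. From each pathway list and comparison, genes were named by a rule: the 2 furthest above and the 2 furthest below 0 in log2 difference among called genes whose mean reached 5 CPM. Errfi1, Adam17, Rhbdf2, Pgf, Igf1r, Igfbp6, Nrg2 and Nrg4 were added for their role or after their values were seen. Genes named only for how they passed the low-count filter are outside this rule. One gene near Vegfb in pattern is not reported here. The script was tested on simulated data. Promoters and coordinates come from RefSeq tables of GRCm38.p6; the submitters' notes name mm10. DESeq2 1.42.0, other scalings, no filter, 6-library fits, a replicate block, recovered reads and each library left out gave 18 alternative fits, and a required log2 difference of at least 1 was applied to counts of calls.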

Additional observations from a re-analysis of the deposited data

How the results depend on the processing

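Of 392 values of members under 18 alternative fits, 386 kept their direction and their side of the threshold. Among them are the tumor values of Hbegf, Areg, Ereg and Pdgfa, which were close to fixed because blood held few reads. The exceptions were Pdgfb in tumor against LLC blood without LLC blood 2 or 3 (not called) and in tumor against healthy blood without LLC blood 1 (called), and Grn in tumor against healthy blood with DESeq2 and without healthy blood 1 (called). Grn in tumor against LLC blood changed sign with library totals alone, at -0.12. The count of members called was 2 in LLC blood against healthy blood under every alternative, 6 to 7 in tumor against LLC blood and 6 to 7 in tumor against healthy blood. With only the 6 blood libraries in the fit, with or without a replicate block, 4 members were tested instead of 8.

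With a log2 difference of at least 1 required, the genes called numbered 769 in LLC blood against healthy blood, 3538 in tumor against LLC blood and 3989 in tumor against healthy blood, and 9 list genes were called between the blood groups. With only the 6 blood libraries in the fit, 4889 genes and 27 list genes were called between the blood groups. With a replicate block on these 6 libraries the counts were 4820 and 31. Leaving out each library gave 1494 (without LLC blood 2) to 5064 genes (without LLC tumor 1), and 12 to 30 list genes. The cause of these shifts was not tested. With the replicate block in the fit of 9 libraries, 2788, 7455 and 8092 genes were called and 2, 7 and 6 members, in LLC blood against healthy blood, tumor against LLC blood and tumor against healthy blood. Each library's deviations from its group mean in log CPM were correlated over genes with those of libraries of another group. Same-numbered libraries gave 0.30, 0.18 and 0.07 between the blood groups and -0.08, 0.12 and -0.14 between LLC blood and tumor. Differently numbered libraries gave -0.31 to 0.17 and -0.14 to 0.17. Same-numbered libraries share a number and no pairing is known.

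Depth limits Hbegf, Areg, Ereg and Pdgfa in blood, where a library held 0 to 8 reads of each, and a difference between the blood groups was not detectable.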
